A study of Mus musculus with 16 samples.

Results

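The 8 liver arrays compared here are the 4 of MET_KO_canertinib, on days 0, 2, 7 and 14 after partial hepatectomy, and the 4 of MET_FLOX_canertinib on the same days. They were taken by their labelled arm and paired by day, and they make up 8 of the 16 arrays of the series. In partial hepatectomy part of the liver is cut away and the remnant grows back. In MET_KO_canertinib mice exon 16 of Met had been removed with a tamoxifen-inducible Cre system, and MET_FLOX_canertinib mice served as their counterparts with the floxed gene. The labels give every arm the genotype Metff/ff:ERCre+/+ and the strain 129SV/C57BL/6, and both arms here ate a diet with canertinib aimed at 80 mg/kg. The other 8 arrays are MET_KO and MET_FLOX on the same 4 days, without canertinib. Each arm has 1 array on each day, and the labels leave unsaid if the RNA came from 1 animal or from pooled animals. The p-values therefore measure only the spread between these arrays. In the fit paired by day, that spread is how far the difference between the arms varied from day to day. A change of the difference with time and the noise of single arrays cannot be told apart in it.

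MET is the receptor tyrosine kinase for hepatocyte growth factor, and EGFR is the receptor for EGF, TGF alpha and related ligands. Both drive hepatocytes into the cell cycle after loss of liver mass, and both also act on liver metabolism. Canertinib is an irreversible inhibitor of the EGFR family, so the 2 arms differ in Met while both have EGFR signalling under drug. The question addressed is therefore what loss of Met adds when EGFR is already inhibited.

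Values are signals of single probe sets on a linear scale. They were put on the scale log2(signal + 16), and a difference is MET_KO_canertinib minus MET_FLOX_canertinib on that scale. Adding 16 makes differences of dim genes smaller than their ratio of signals. A gene was called where limma, with day as a block, gave a Benjamini-Hochberg adjusted p below 0.05 over all 13575 genes. On a single day no test exists, and genes are counted where the difference passed 1 in either direction.

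The 8 arrays had median signals between 244 and 265.1, the highest being MET_KO_canertinib on day 14. The ratio of 3' to 5' Gapdh signal, a sign of RNA integrity, was 0.95, 1.35, 1.14 and 1.13 in MET_KO_canertinib, against 1.08, 1.11, 1.52 and 2.24 in MET_FLOX_canertinib. It was thus highest in the MET_FLOX_canertinib array of day 14, the same day on which the 2 arms differed most. The hepatocyte markers identified all 8 arrays as liver: albumin (Alb) gave at least 56977 in each. None of the 4 tested sex-chromosome genes passed a difference of 1 on any day. The Met probe set used gave 1422, 982, 1285 and 1321 in MET_KO_canertinib, against 1118, 1165, 2014 and 1264 in MET_FLOX_canertinib, a mean difference of -0.12 ± 0.20 (SE). Where it lies relative to exon 16 was not analysed here, so these signals do not check the deletion.

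None of the tested signalling genes around both receptors was called. Of 12 tested genes of MET and HGF signalling 0 were called, 0 were higher and 2 lower on all 4 days (6.22% and 6.8% of all genes), and the list medians were -0.04, -0.05, -0.22 and 0.15 on days 0, 2, 7 and 14. Hgf, the ligand of MET, gave 251, 214, 273 and 491 in MET_KO_canertinib, against 257, 553, 683 and 145 in MET_FLOX_canertinib, so that its direction turned on day 14. A dimmer Hgf probe set gave 79.2, 127.9, 132.9 and 254.9 in MET_KO_canertinib, against 98.2, 164.9, 12.1 and 41.6 in MET_FLOX_canertinib. It was thus higher in the knockout on day 7 already. Egfr gave 2764, 6343, 6514 and 7014 in MET_KO_canertinib, against 6964, 4368, 7799 and 12541 in MET_FLOX_canertinib, with a mean difference of -0.47 ± 0.30 (SE, limma adjusted p = 0.966). Other Egfr probe sets went different ways. One gave 1049.8, 4751, 4045 and 7312 in MET_KO_canertinib, against 3057, 2139.7, 3427 and 6049 in MET_FLOX_canertinib, and was thus higher in the knockout on days 7 and 14, where the first was lower. Over 8 tested genes of the EGFR family and its ligands 1 was past a log2 difference of 1 on day 0, on the lower side, and that was Egfr. Among 18 immediate-early and feedback genes of ERK, the kinase downstream of both receptors, 5 were past 1 lower and 2 higher on day 0 (4.09% and 4.94% of all genes), and 6 were past 1 higher and 0 lower on day 14 (8.49% and 8.74%).

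A single gene was called over the 4 days, 0.00737% of those tested. It was Cyp17a1, a cytochrome P450 of steroid hormone synthesis. Its signal was 3264, 4258, 6125 and 7073 in MET_KO_canertinib on days 0, 2, 7 and 14, against 268, 661, 592 and 778 in MET_FLOX_canertinib. The lowest knockout array thus stood above the highest flox array, and the ratio of signals ran from 6.45 on day 2 to 12.2 on day 0. Cyp17a1 rose by 3.17 ± 0.18 on the log2 scale (SE, n = 4 pairs, limma adjusted p = 0.00698). Without the day 14 pair the rise was 3.18 ± 0.21 (SE, n = 3 pairs, limma adjusted p = 0.0211). Without the day 0 or the day 7 pair it was 3.05 or 3.12, and the limma adjusted p was 0.101 or 0.12. With the Gapdh 3' to 5' ratio as a covariate the rise was 3.07 and the limma adjusted p 0.146. Before adjustment 550 genes (4.05%) had a limma p below 0.05.

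Without the day 14 pair 2 genes were called, 0.0147% of those tested, with 720 (5.3%) below 0.05 before adjustment. Beside Cyp17a1 the other was Ehhadh, the bifunctional enzyme of peroxisomal fatty acid oxidation. Ehhadh gave 11456, 8179.7, 17403 and 225 in MET_KO_canertinib, against 2598, 2006, 3858 and 1549 in MET_FLOX_canertinib. On days 0, 2 and 7 the knockout arrays lay above every flox array, and on day 14 the order was turned, with the lowest value of all 8 in the knockout. Over days 0, 2 and 7 Ehhadh rose by 2.11 ± 0.13 (SE, n = 3 pairs, limma adjusted p = 0.0211), and with day 14 the mean difference was 0.91 ± 0.80 (SE, limma adjusted p = 0.966). Leaving out a further pair from the 3, or the day term, left neither gene called.

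Inf2, a formin that remodels actin filaments, was also higher in the knockout on days 0, 2 and 7. It gave 5649, 5474, 10649.9 and 1724 in MET_KO_canertinib, against 1013, 1487, 1614 and 2066 in MET_FLOX_canertinib. The first 3 knockout arrays lay above all flox arrays, while on day 14 the difference was -0.26, against -2.70 for Ehhadh. The difference of Inf2 over days 0, 2 and 7 was 2.35 ± 0.19 (SE, n = 3 pairs, limma adjusted p = 0.0552), which did not pass the threshold. Mmd2, a membrane protein of the progestin and adipoQ receptor family, gave 3594, 4241, 9085 and 1350.4 in MET_KO_canertinib, against 677, 774, 90.5 and 494 in MET_FLOX_canertinib. The arms did not overlap, but the daily difference varied between 1.42 and 6.42, and the mean of 3.16 ± 0.74 (SE) was not called (limma adjusted p = 0.966). A further Mmd2 probe set gave 2706.5, 5604, 10039.7 and 1276 in MET_KO_canertinib, against 259.7, 343, 276 and 548.5 in MET_FLOX_canertinib. Where all 8 arrays had to lie above their own median, this probe set stood for Mmd2, and without day 14 it was called (limma adjusted p = 0.0188), as was Inf2 (limma adjusted p = 0.0194), while Ehhadh was not tested.

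**Figure D1:**
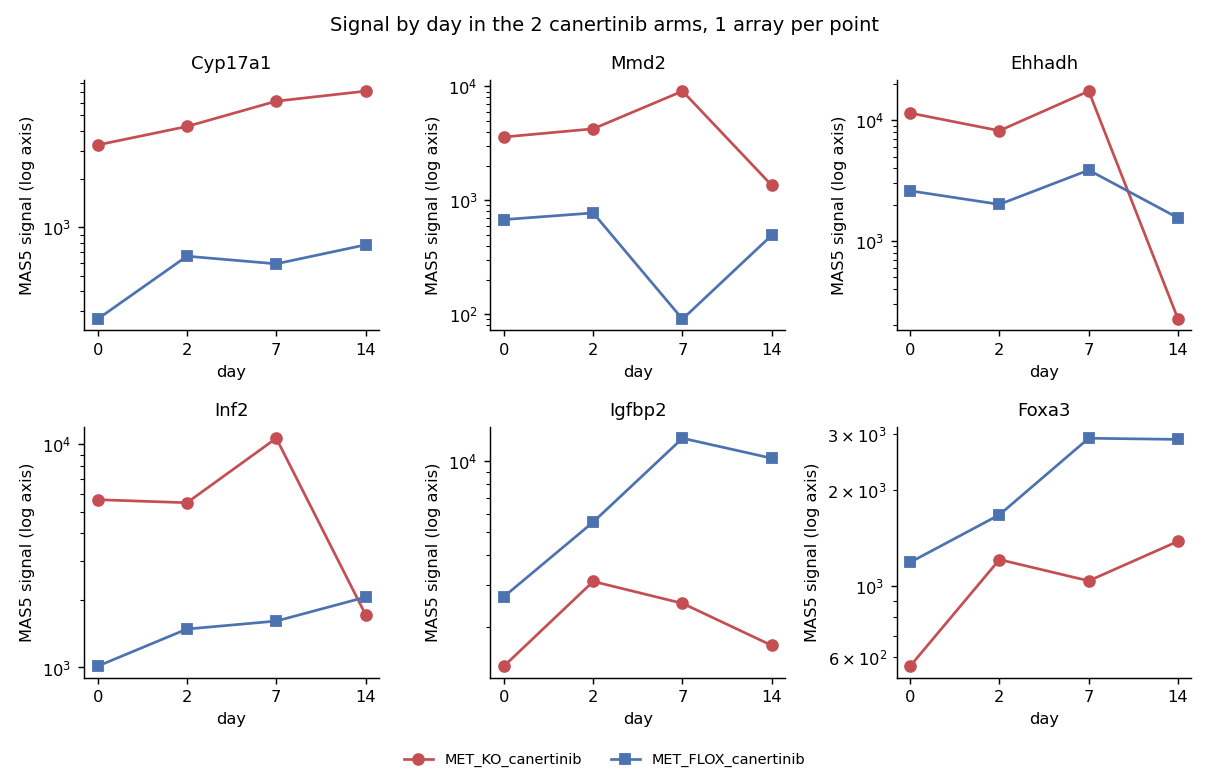
MAS5 signal (log axis) of 6 genes against day, with 1 array per point, MET_KO_canertinib as red circles and MET_FLOX_canertinib as blue squares. Cyp17a1 and Mmd2 are higher in the knockout on all 4 days, Ehhadh and Inf2 on days 0, 2 and 7, and Igfbp2 and Foxa3 are lower on all 4 days.

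Taking only direction, 845 genes (6.22%) were higher and 923 (6.8%) lower in MET_KO_canertinib on all 4 days. Past a difference of 1 on every day there were 5 higher (0.0368%) and 0 lower (0%). The 5 were Cyp17a1, Mmd2, Nod1, Gm6211 and Cops4. Nod1, a cytosolic sensor of bacterial cell wall fragments, gave 818, 353, 579.9 and 613 in MET_KO_canertinib, against 361, 103, 169.5 and 230.5 in MET_FLOX_canertinib. Its daily differences lay between 1.14 and 1.68, with a mean of 1.45 ± 0.23 (SE, limma adjusted p = 0.966). Cops4, a subunit of the COP9 signalosome, lay at 217, 326, 224 and 362 in MET_KO_canertinib, against 57.7, 143, 72.3 and 41.7 in MET_FLOX_canertinib. The predicted gene Gm6211 differed by 1.27 to 1.45 on each day. None of these 3 was called, and Cops4 was named after its values were seen.

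Other genes that were higher on all 4 days, ranked by their smallest daily difference, were Noc2l, Ppp6r1, Kif3a, Atpaf1, Rhof, Fam219b, Gpcpd1 and Inka1. Their mean differences ran from 0.73 for Inka1 to 1.72 for Kif3a, a kinesin motor subunit needed for cilia. The brightest of them was Gpcpd1, an enzyme that cleaves glycerophosphocholine. It gave 4234, 3262, 2391 and 7356 in MET_KO_canertinib, against 2659, 1041, 1435 and 1702 in MET_FLOX_canertinib. The arms overlapped across days, with a mean difference of 1.28 ± 0.27 (SE, limma adjusted p = 0.966).

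On the lower side the same ranking gave Abcd2, Igfbp2, Zfp109, Osm, Tenm3, Acaa2, Vipr2, 2210407C18Rik, Cyp2d9, 2410006H16Rik, St3gal3 and Fabp1. Igfbp2, a secreted binding protein for insulin-like growth factors, gave 1368, 3109, 2515 and 1672 in MET_KO_canertinib, against 2682, 5526, 12445 and 10252 in MET_FLOX_canertinib. Its difference was near 1 on days 0 and 2 and past 2 on days 7 and 14, with a mean of -1.67 ± 0.33 (SE, limma adjusted p = 0.966). Osm, the cytokine oncostatin M, lay between 199.8 and 345 in MET_KO_canertinib, against 452 to 630.2 in MET_FLOX_canertinib, with no overlap. Its mean difference was -1.09 ± 0.22 (SE, limma adjusted p = 0.966). Acaa2, a mitochondrial thiolase of fatty acid oxidation, gave 5875, 11638, 12774 and 4179.6 in MET_KO_canertinib, against 18156, 21451, 19844 and 6607 in MET_FLOX_canertinib. The arms overlapped only through the low day 14 value of the flox arm, and the mean difference was -0.95 ± 0.22 (SE, limma adjusted p = 0.966). Abcd2, a peroxisomal transporter of very long-chain fatty acids, differed most on day 7, by -3.18, where its knockout signal was 23.4 against 342.

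Foxa3, a forkhead transcription factor of hepatocytes, is a member of the list of hepatocyte transcription factors with the same direction on each day. Its signal was 562, 1212, 1039.7 and 1382 in MET_KO_canertinib, against 1188, 1673, 2904 and 2879 in MET_FLOX_canertinib. The mean difference was -1.01 ± 0.19 (SE, limma adjusted p = 0.966). Of the 16 tested members of that list, 0 were higher and 2 lower on all 4 days (6.22% and 6.8% of all genes). Hnf4a, the main nuclear receptor of hepatocyte identity, differed by -0.72, 0.31, 0.07 and -0.22.

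Across all genes the daily differences had little in common. Pearson's r between the differences of any pair of days lay between -0.067 and 0.065 over 13575 genes, which are not independent, and different days share no array. The standard deviation of the differences was 0.63, 0.67, 0.71 and 0.87 on days 0, 2, 7 and 14. Past a difference of 1 there were 671 genes (4.94%) higher and 555 (4.09%) lower on day 0, 726 (5.35%) and 695 (5.12%) on day 2, 853 (6.28%) and 776 (5.72%) on day 7, and 1153 (8.49%) and 1187 (8.74%) on day 14. The median over all genes was at most 0.0019 from 0 on each day. Bulk signal cannot tell fewer cells of a type from less RNA per cell, and this holds for every list below.

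**Figure D2:**
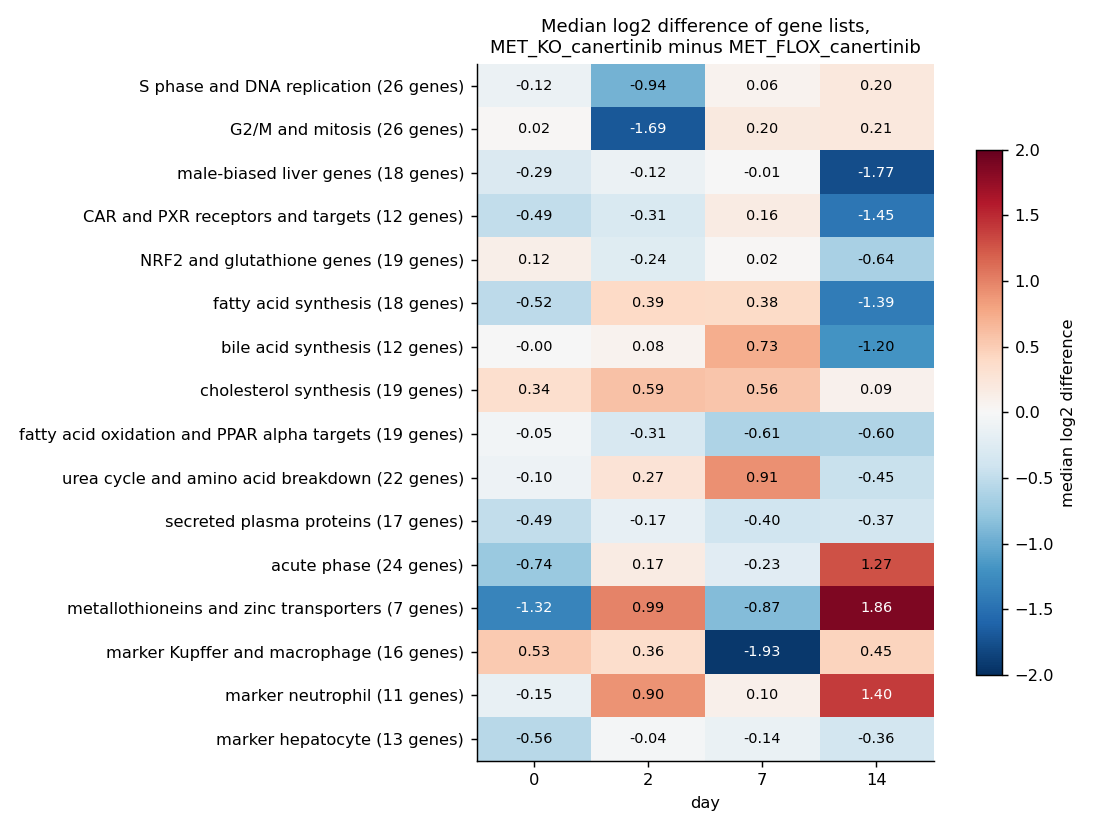
Median log2 difference (colour and printed value) of 16 gene lists by day, MET_KO_canertinib minus MET_FLOX_canertinib, with the number of genes tested in each list. The G2/M list stands out on day 2 (-1.69), Kupffer markers on day 7 (-1.93), and male-biased genes (-1.77) and the list of metallothioneins and zinc transporters (1.86) on day 14.

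On day 2, when cell cycle genes peak after hepatectomy in mice, the cell cycle lists were lower in MET_KO_canertinib. Of 26 tested G2/M and mitosis genes, 20 were lower by more than 1 on that day and 0 were higher by more than 1, with a list median of -1.69. Where all 8 arrays had to lie above their own median, the list median was -0.91. Among all genes 5.12% were past 1 lower. Ccnb2, a cyclin of mitotic entry, gave 43.1, 169, 368 and 56.6 in MET_KO_canertinib, against 48.9, 1875, 47.7 and 10.7 in MET_FLOX_canertinib. Its day 2 flox array was the highest of the 8 and the day 2 knockout array lay below the knockout array of day 7. Mad2l1, of the spindle checkpoint, gave 134 against 1546 on day 2, and Nuf2, of the kinetochore, gave 65.7 against 870.3. Cenpf, a centromere protein, was the only member that was higher on that day, by 0.27.

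Summed over the 26 genes, the signal was 8216, 11546, 10814 and 9855 in MET_KO_canertinib, against 7734, 35928, 10139 and 8458 in MET_FLOX_canertinib. Only the flox array of day 2 stood apart. On days 0, 7 and 14 the list medians were 0.02, 0.20 and 0.21. Ect2, an exchange factor of cytokinesis, was lower by more than 1 on days 0, 2 and 7, with 42.6, 58.2, 43.2 and 193 in MET_KO_canertinib, against 138, 844, 262 and 207 in MET_FLOX_canertinib. Its mean difference over those 3 days was -2.39 ± 0.61 (SE, limma adjusted p = 0.914).

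The list of S phase and DNA replication genes moved less far. On day 2, 12 of 26 were lower by more than 1 and 1 was higher (5.12% and 5.35% of all genes), with a median of -0.94. Rrm2, the regulated subunit of ribonucleotide reductase, gave 824, 1306, 978 and 598 in MET_KO_canertinib, against 961, 5902, 945 and 579 in MET_FLOX_canertinib. Mcm7, a subunit of the replicative helicase, gave 773, 1227, 1574 and 809 in MET_KO_canertinib, against 1038, 5001, 1371 and 1251 in MET_FLOX_canertinib. In both genes the day 2 flox array was more than 3 times any other array of the canertinib arms. The member past 1 higher was Pola1, a DNA polymerase subunit, which was 380.3 in MET_KO_canertinib against 166 in MET_FLOX_canertinib on day 2. For the 15 tested G1 cyclins, kinases and E2F factors the day 2 median was -0.34. Of them 3 were lower and 0 higher by more than 1, against the same 5.12% and 5.35% of all genes.

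The promoters of 2 of these genes are shown because many mitotic genes carry the CCAAT box and the cell cycle gene homology region TTTGAA. The homology region takes part in holding them off outside G2 and M. Capitals mark both motifs on either strand, so ATTGG is CCAAT on the other strand. The sequences, from RefSeq on GRCm38.p6, run from 250 bases before to 50 after the gene start. Ccnb2 lies at chr9:70421505-70421804 and Cdk1, the mitotic kinase, at chr10:69352863-69353162, both on the minus strand.
Ccnb2: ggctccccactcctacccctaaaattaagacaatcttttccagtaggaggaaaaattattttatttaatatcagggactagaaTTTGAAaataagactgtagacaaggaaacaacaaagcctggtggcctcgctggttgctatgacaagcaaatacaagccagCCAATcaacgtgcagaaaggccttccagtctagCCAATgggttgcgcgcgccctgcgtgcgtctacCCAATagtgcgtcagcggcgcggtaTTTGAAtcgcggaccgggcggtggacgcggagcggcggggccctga
Cdk1: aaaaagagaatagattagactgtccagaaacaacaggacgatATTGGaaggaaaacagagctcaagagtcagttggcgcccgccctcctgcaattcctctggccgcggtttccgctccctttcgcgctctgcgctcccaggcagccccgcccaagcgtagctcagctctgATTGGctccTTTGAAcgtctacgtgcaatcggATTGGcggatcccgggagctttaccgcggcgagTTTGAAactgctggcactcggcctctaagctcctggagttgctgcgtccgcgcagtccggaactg
Each holds 3 CCAAT and 2 TTTGAA matches. Of the G2/M list 21 genes had a promoter in the table, and 16 of them (76.2%) held TTTGAA, against 3 of 23 (13%) in the S phase list and 18.1% of all 27025 promoters. CCAAT was held by 16 of 21 (76.2%) G2/M promoters, by 14 of 23 (60.9%) S phase promoters and by 37.9% of all. Both motifs were held by 15 of 21 (71.4%), by 2 of 23 (8.7%) and by 7.12% of all. A match describes the letters only.

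**Figure D3:**
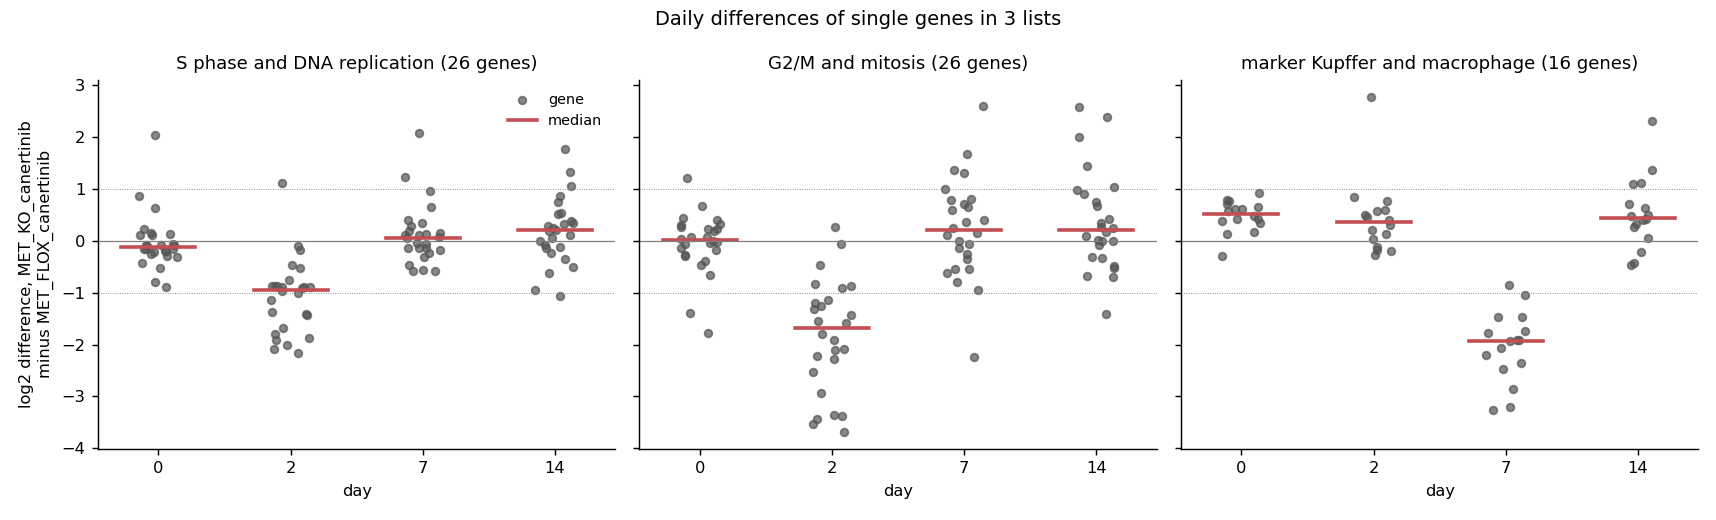
Log2 difference of each gene (grey points) and list median (red bars) on days 0, 2, 7 and 14, MET_KO_canertinib minus MET_FLOX_canertinib, with dotted lines at 1 and -1. On day 2 the medians of the cell cycle lists lie at -0.94 and -1.69, and 15 of 16 Kupffer and macrophage markers lie below -1 on day 7.

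On day 7, markers of Kupffer cells, the resident macrophages of the liver, were lower in MET_KO_canertinib. Of 16 tested markers 15 were lower by more than 1 and 0 were higher, with a median of -1.93, where 5.72% of all genes were past 1 lower. Marco, a scavenger receptor, gave 875, 1666, 640.0 and 6527 in MET_KO_canertinib, against 689, 1249, 6292 and 3017 in MET_FLOX_canertinib. Clec4f, a lectin particular to mouse Kupffer cells, gave 2468, 1497, 1339 and 2626 in MET_KO_canertinib, against 1843, 1709.5, 6902 and 1977 in MET_FLOX_canertinib. For Clec4f the flox array of day 7 was the highest of the 8 and the knockout array of that day the lowest. Summed over the 16 markers, the signal was 36664, 31352, 22773 and 57829 in MET_KO_canertinib, against 24378, 26167, 94530 and 39279 in MET_FLOX_canertinib, and no marker was at 0.

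The same flox array of day 7 also held muscle transcripts. Ckm, muscle creatine kinase, gave 446 in MET_KO_canertinib against 6455 in MET_FLOX_canertinib on that day, and Atp2a1, the calcium pump of fast muscle, gave 468 against 7118. In the other 6 canertinib arrays both lay between 278 and 681. The part of muscle RNA, and of the higher Gapdh ratio of that array (1.52 against 1.14 in the knockout), in the day 7 differences was not tested.

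Genes of the urea cycle and amino acid breakdown were higher in MET_KO_canertinib on day 7, with 9 of 22 past 1 higher, 0 past 1 lower and a median of 0.91. The background was 6.28% of genes past 1 higher. Bhmt, which remethylates homocysteine, gave 47538, 44967, 59944 and 9416 in MET_KO_canertinib, against 45611, 32432, 6959 and 33288 in MET_FLOX_canertinib. Here too 2 arrays stood low, the flox array of day 7 and the knockout array of day 14. Cth, which makes cysteine, gave 27664 against 5583 on day 7, and Hal, which breaks down histidine, 7272 against 2329. Asl, the urea cycle enzyme that splits argininosuccinate, was higher on all 4 days, with 9584, 12951, 15291 and 10567 in MET_KO_canertinib, against 7378, 4475, 5113 and 6223 in MET_FLOX_canertinib. Its arms did not overlap, and the mean difference was 1.06 ± 0.25 (SE, limma adjusted p = 0.966). On day 14 the list lay the other way, with 7 of 22 past 1 lower, 1 past 1 higher and a median of -0.45. The shares over all genes were 8.74% lower and 8.49% higher on that day.

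**Figure D4:**
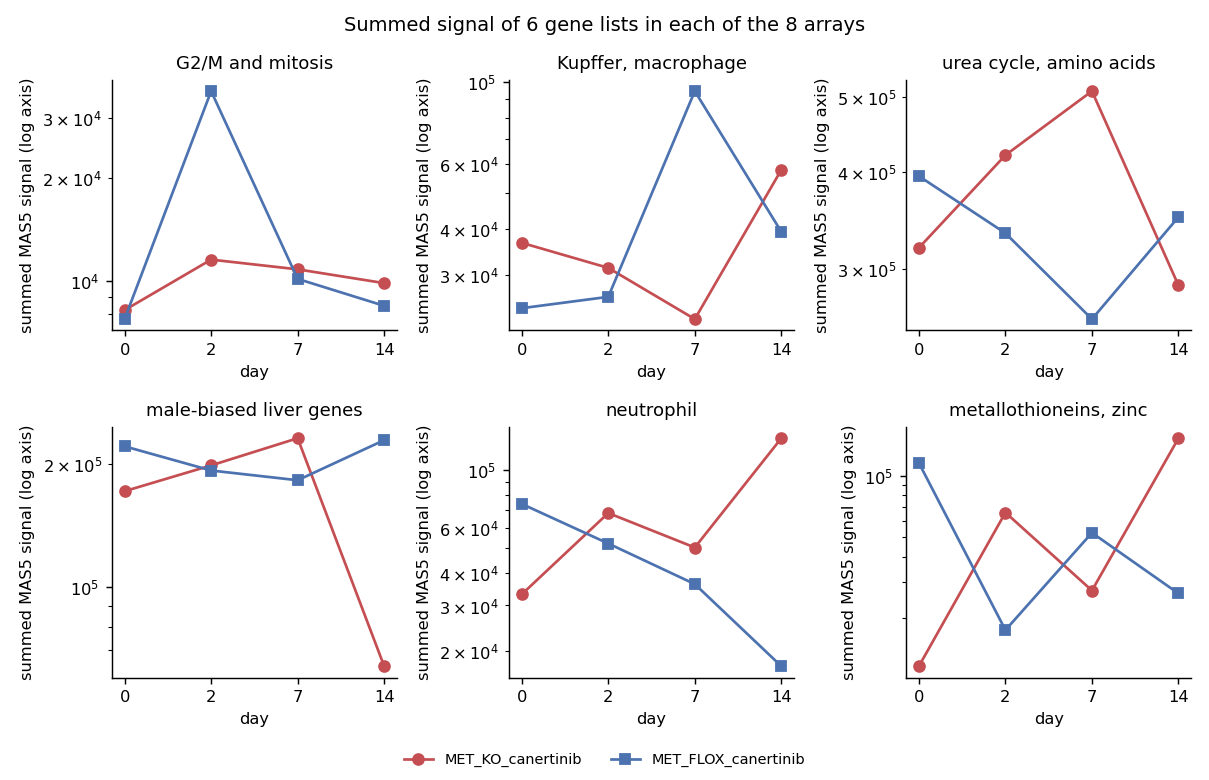
Summed MAS5 signal (log axis) of 6 gene lists by day, with 1 array per point, MET_KO_canertinib as red circles and MET_FLOX_canertinib as blue squares. Single arrays stand apart: MET_FLOX_canertinib on day 2 for G2/M genes and on day 7 for Kupffer markers, and MET_KO_canertinib on day 14 for male-biased genes and neutrophil markers.

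Day 14 held the most genes past 1, and the knockout array of that day had little signal for several abundant metabolic transcripts of hepatocytes. Aox3, an aldehyde oxidase, gave 5383, 7503, 5844 and 26.2 in MET_KO_canertinib, against 13509, 16739, 7973 and 12479 in MET_FLOX_canertinib. Car3, a carbonic anhydrase, gave 30739, 19986, 8948 and 56 in MET_KO_canertinib, against 49168, 14876, 17857 and 18508 in MET_FLOX_canertinib. Inmt, an indole methyltransferase, gave 44.1 against 9989 on day 14, and Acaa1b, a peroxisomal thiolase, 257 against 24386. In all 4 genes the day 14 knockout array was the lowest of the 8 by a wide margin. Fabp1, the liver fatty acid binding protein, was lower on each day, with differences of -0.54, -0.63 and -1.05 on days 0, 2 and 7 and of -5.18 on day 14.

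Male-biased liver genes, many of which depend on pulsatile growth hormone, were low in that array. Of 18 tested, 14 were lower by more than 1 on day 14 and 0 were higher, with a median of -1.77 (8.74% of all genes were past 1 lower). Elovl3, a fatty acid elongase, gave 1167, 6662, 7154 and 357 in MET_KO_canertinib, against 6625, 5523, 1729.9 and 8904 in MET_FLOX_canertinib. Mup3, a major urinary protein whose probes may also read its near-identical relatives, gave 613 against 16079 on day 14. Hsd3b5, a steroid dehydrogenase, gave 16.5, 305, 52.1 and 18.8 in MET_KO_canertinib, against 1208, 1084, 93.8 and 2030.3 in MET_FLOX_canertinib. It was lower on all 4 days, with a mean of -3.40 ± 0.88 (SE, limma adjusted p = 0.966). On days 0, 2 and 7 the list medians were -0.29, -0.12 and -0.01. On day 0, 6 of the 18 were lower by more than 1 and 1 higher (4.09% and 4.94% of all genes). On day 7, 0 were lower and 4 higher by more than 1 (5.72% and 6.28%). In direction alone, 7 were lower and 1 higher on all 4 days (6.8% and 6.22%). Over the female-biased list, which holds Cyp17a1 and to which Mmd2 was added with its values known, 9 of 17 were higher by more than 1 on day 14 (8.49% of all genes) and 2 lower, with a median of 1.04.

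Lists of lipid, bile acid and drug metabolism were also low in the day 14 knockout array. Of 18 fatty acid synthesis genes 12 were lower by more than 1 on day 14 (median -1.39), and of 12 bile acid synthesis genes 7 (median -1.20). So were 6 of 12 CAR and PXR receptors and targets (median -1.45) and 9 of 19 NRF2 and glutathione genes (median -0.64). Past 1 higher were 1, 0, 0 and 0 members of these lists, in that order. The shares over all genes were 8.74% past 1 lower and 8.49% past 1 higher. Scd1, the stearoyl-CoA desaturase, gave 21214, 28298, 23736 and 3428 in MET_KO_canertinib, against 77204, 16345, 2779.9 and 38185 in MET_FLOX_canertinib, so its direction turned between days. Cyp3a11, a drug-metabolising cytochrome P450, gave 2818 against 62237 on day 14, while the other 6 canertinib arrays lay between 36532 and 60464. Cyp7a1, the rate-limiting enzyme of bile acid synthesis, gave 3577, 3012, 2965 and 415 in MET_KO_canertinib, against 654, 797, 1267 and 3216 in MET_FLOX_canertinib. Over days 0, 2 and 7 it was higher by 1.85 ± 0.24 (SE, n = 3 pairs, limma adjusted p = 0.345), and on day 14 its difference was -2.91. Cyp7b1, an oxysterol hydroxylase, was higher on days 0, 2 and 7 by 1.62, 1.48 and 3.53, and differed by 0.08 on day 14.

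Markers of hepatocytes were mostly lower in MET_KO_canertinib on that day, and lay further down on day 0. Of 13 tested hepatocyte markers 11 were lower on day 14, 2 of them by more than 1, where 8.74% of all genes were past 1 lower, and the median was -0.36. Those past 1 were Cyp3a11 and Cps1, the entry enzyme of the urea cycle, which differed by -1.25. Apoa1 differed by -0.77 and Tat, tyrosine aminotransferase, by 0.98. Hnf4a gave 10497 in MET_KO_canertinib against 12205 in MET_FLOX_canertinib. On day 0, 12 of the 13 hepatocyte markers were lower, 2 of them by more than 1 (4.09% of all genes), with a median of -0.555. On all 4 days 7 of the 13 were lower, where 6.8% of all genes were.

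**Figure D5:**
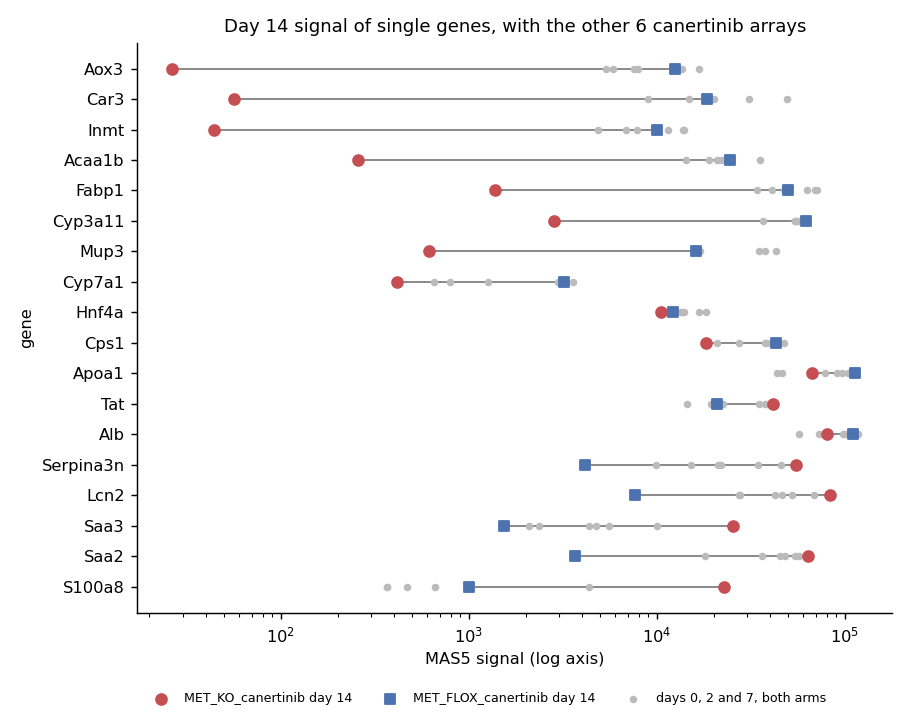
Day 14 MAS5 signal (log axis) of 18 genes in MET_KO_canertinib (red circles) and MET_FLOX_canertinib (blue squares), with the other 6 canertinib arrays as grey points. Aox3, Car3, Inmt and Acaa1b lie far left of every other array in the knockout, Cps1 and Apoa1 are lower and Tat is higher in the knockout, and acute phase genes and S100a8 lie to the right.

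Acute phase genes, which the liver secretes in inflammation, were higher in the same array. Of 24 tested, 14 were higher by more than 1 on day 14 and 1 was lower, with a median of 1.27, where 8.49% of all genes were past 1 higher. Serpina3n, a protease inhibitor, gave 15104, 34508, 21961 and 54757 in MET_KO_canertinib, against 45531, 21206, 9871 and 4119 in MET_FLOX_canertinib. The knockout array of day 14 was the highest of the 8 and the flox array of that day the lowest. Saa2, a serum amyloid A whose probes may also read its relatives, gave 63388 against 3644 on day 14, and Hamp, the iron hormone hepcidin, 44613 against 3275. On day 0 the list lay the other way, with 7 of 24 lower by more than 1, 1 higher (4.09% and 4.94% of all genes) and a median of -0.74. Under quantile normalization that median was -0.17. Of 17 cytokine, chemokine and STAT3 genes 9 were higher by more than 1 on day 14 and 0 lower, with a median of 1.25.

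Neutrophil markers were also higher in that array. Of 11 tested, 7 were higher by more than 1 on day 14 and 0 lower (median 1.40), where 8.49% of all genes were past 1 higher. On day 2, 5 were higher by more than 1 and 0 lower, where 5.35% of all genes were past 1 higher. The day 2 median was 0.90, and 0.47 where all 8 arrays had to lie above their own median. On day 0 the list had 3 lower and 1 higher by more than 1 (4.09% and 4.94% of all genes), with a median of -0.15. S100a8, a calcium-binding protein of myeloid cells, gave 368, 4349, 468 and 22731 in MET_KO_canertinib, against 662, 366, 1025 and 1006 in MET_FLOX_canertinib. Granule genes were also higher on day 14, with Ngp at 6179.8 against 1517 and Elane, neutrophil elastase, at 1498 against 558. The summed signal was 33135, 68366, 50283 and 133134 in MET_KO_canertinib, against 74150, 52110, 36292 and 17467 in MET_FLOX_canertinib. Lcn2, which inflamed hepatocytes also make, held 83663 of the day 14 knockout sum, and no marker was at 0. Markers of several other cell types were higher more often than lower on day 14 too, but not of all. Higher were 12 of 16 endothelial markers (median 0.66), 13 of 17 stellate and matrix markers (0.58) and 13 of 16 Kupffer markers (0.45). So were 8 of 10 cholangiocyte and progenitor markers (0.58), 3 of 4 adipocyte markers (1.07) and 7 of 11 lymphocyte markers (0.13). Erythroid markers had 3 higher and 3 lower (-0.13), and pancreatic acinar markers 3 higher and 5 lower (-0.06). The median over all genes was 0.0019 on that day. The part of RNA of these cells, of neutrophil RNA and of the Gapdh ratio of 2.24 in the flox array, in the day 14 differences was not tested.

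Metallothioneins, which bind zinc and copper, were higher in one arm or the other depending on the day. Mt1 gave 3285, 29934, 10205 and 74344 in MET_KO_canertinib, against 52356, 6566, 21361 and 9596 in MET_FLOX_canertinib. Mt2 followed it, with 2234, 25798, 11136 and 59345 in MET_KO_canertinib, against 47711, 4462, 22124 and 7606 in MET_FLOX_canertinib. Their differences were -3.99 and -4.41 on day 0, 2.19 and 2.53 on day 2, -1.06 and -0.99 on day 7, and 2.95 and 2.96 on day 14. The zinc importer Slc39a14 had the same signs, at -1.92, 0.99, -1.20 and 1.86, as did the zinc exporter Slc30a1, at -1.32, 2.03, -0.03 and 2.99. The other members did not share these signs. Slc39a4, a zinc importer, differed by -0.26, -0.20, -0.87 and -0.70, and Slc30a10, a manganese exporter, by -0.06, 0.24, 1.33 and -0.37. Mtf1, the zinc-sensing factor that drives metallothionein transcription, differed by 0.45, 0.09, 0.29 and -0.86 and was named after its values were seen. The list median of -1.32 on day 0 became -0.44, and that of 1.86 on day 14 became 0.32, where all 8 arrays had to lie above their own median. Over 4 days the means of Mt1 and Mt2 were both 0.02, with SEs of 1.06 and 1.14.

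The Mt1 promoter is shown because its metal response elements, the letters TGCACNC or TGCGCNC, bind MTF1. It lies at chr8:94178839-94179138 on the plus strand of GRCm38.p6, from RefSeq, and capitals mark the matches on either strand.
Mt1: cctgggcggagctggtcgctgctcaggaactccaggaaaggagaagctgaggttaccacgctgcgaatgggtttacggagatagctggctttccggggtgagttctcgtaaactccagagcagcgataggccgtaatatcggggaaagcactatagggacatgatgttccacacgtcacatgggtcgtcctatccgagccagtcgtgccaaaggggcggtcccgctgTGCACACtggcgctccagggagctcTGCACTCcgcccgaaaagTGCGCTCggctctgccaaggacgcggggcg
It holds 3 matches, and 25.6% of all 27025 promoters hold at least 1.

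A few lists had small differences with a common direction over the days. Of 17 tested genes of secreted plasma proteins, 11 were lower on all 4 days and 0 higher, where 6.8% of all genes were lower, and 12 were lower on days 0, 2 and 7, against 13.4% of all genes. The median of their mean differences was -0.33, and under quantile normalization it was -0.09. Apoa1, the main protein of high-density lipoprotein, gave 43565, 78072, 46152 and 66418 in MET_KO_canertinib, against 90394, 96866, 103839.5 and 112896 in MET_FLOX_canertinib. Every knockout array lay below every flox array, with a mean difference of -0.82 ± 0.33 (SE, limma adjusted p = 0.966). Transthyretin (Ttr) gave 53509, 74217, 67696 and 60284 in MET_KO_canertinib, against 90769, 82652, 99789 and 85537 in MET_FLOX_canertinib, also without overlap.

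Cholesterol synthesis genes lay on the higher side. Of 19 tested, 6 were higher on all 4 days and 0 lower (6.22% of all genes were higher), and 11 were higher on days 0, 2 and 7 and 0 lower (13.6% of all genes were higher). The median mean difference was 0.44, and 0.52 without day 14. Fdps, which makes farnesyl pyrophosphate, gave 4428, 2437, 1161 and 4021 in MET_KO_canertinib, against 3506, 1117, 436 and 1818 in MET_FLOX_canertinib. Both arms were lowest on day 7, and the mean difference was 0.99 ± 0.20 (SE, limma adjusted p = 0.966). Srebf2, the transcription factor of the pathway, differed by 0.22, -0.16 and -0.02 on days 0, 2 and 14 and by 2.80 on day 7, where the flox signal was 156 and the knockout signal 1185.

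Fatty acid oxidation genes and PPAR alpha targets were lower more often than higher. On all 4 days 7 of 19 were lower and 0 higher (6.8% and 6.22% of all genes), with a median mean difference of -0.37. Without day 14 the counts were 8 lower and 1 higher (13.4% and 13.6% of all genes). The higher one was Ehhadh, which thus ran against its list on days 0, 2 and 7. Among lists with little difference, ribosome biogenesis had medians of 0.09, -0.02, -0.16 and -0.13 over its 20 genes.

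The same genotypes were also arrayed without canertinib, so the genotype difference with the drug can be set against that without it. Over all 16 arrays, 2 genes (0.0147%) were called for the difference with canertinib minus the difference without, and 601 (4.43%) had a limma p below 0.05 before adjustment. They were Cyp17a1 (4.99 ± 0.62, SE) and Mmd2 (6.56 ± 0.85, SE), each with a limma adjusted p of 0.011. Without canertinib Cyp17a1 gave 557, 723, 414 and 388 in MET_KO, against 2562, 3559, 1976 and 602 in MET_FLOX. Mmd2 gave 316, 361, 499 and 135 in MET_KO, against 5754, 5642, 4476 and 806 in MET_FLOX. Both genes were thus higher in the knockout with canertinib and lower in it without, on each of the 4 days. The 8 canertinib arrays and the day 14 arrays without the drug had medians above 216.35, while the other 6 arrays without it lay below. Both genotypes of each drug state lie in the same set on each day, so a term for the set cannot move these estimates and is no check of them. On days 0, 2 and 7 drug state and array set went together, so their parts in these estimates cannot be told apart. Leaving out MET_KO on day 2, or MET_FLOX on day 0, 2 or 7, left neither called, and leaving out MET_KO on day 0 left only Cyp17a1.

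Over all 13575 genes the genotype difference averaged over 4 days had a Pearson's r of -0.148 between the arms with and without canertinib, which share no array. By day r lay between -0.134 and -0.012. Of the 25 genes past 1 higher on days 0, 2 and 7 with canertinib (0.184%), 13 were lower on all 3 days without it and 3 were higher. Of all genes 2017 were lower and 1807 higher on those days without the drug. The 7 genes past 1 lower on days 0, 2 and 7 (0.0516%) were 2410006H16Rik, Cabin1, Ect2, Myo9b, Osm, Pear1 and Ube2t, of which Ube2t was named after its values were seen. Of these 7, 1 was higher on all 3 days without canertinib and 0 were lower.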

How the data were processed

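Total RNA of 6 ug per sample was hybridised to mouse arrays, per the labels. The deposited values are MAS5 signal intensity on a linear scale, made by the authors with MAS5 per the submitters' processing notes (version not given in the sources used here). The mean without the outer 2% was 500 in every array, which is the authors' scaling. Detection calls were not used here, and the number of arrays limits the precision.

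Of 45101 probe sets, 34945 name 1 gene, 932 several and 9160 none, and 64 are controls. Probe sets with 1 gene were kept where at least 4 of 16 arrays lay above their own median (22315), and the brightest stood for its gene (13575 genes). The log2 of the signal plus 16 was fitted with limma 3.58.1 in R 4.3.3, with eBayes and an intensity trend. The 8 arrays gave 3 residual degrees of freedom with day as a block, the 6 without day 14 gave 2, and the 16 arrays with arm and day gave 9. The pairs come from the day in the labels. Exact sign flips of 4 pairs cannot give a p below 0.125, so none was used. The fits were tested on simulated data.

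The comparison, the 43 gene lists (770 entries) and the tests were chosen with earlier results of these data known, so lists are described by counts and medians without a test. Genes named are those called, the 12 highest and 12 lowest with 1 direction on all 4 days ranked by their smallest daily difference (6 each on days 0, 2 and 7), the 6 most different each way on a day, in these rankings only where the brighter array of each pair lay above its own median, a fixed set of 14 genes, and the list members with the largest differences. Alternatives changed the pseudocount, the filter, the scaling, the probe set, the variance prior, the model and the arrays used.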

Additional observations from a re-analysis of the deposited data

Results flagged for a closer look

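Single days were set against the other 3 by the gap of the farthest value over the range, a criterion that chance meets in about 1 in 20 groups. It was applied to 26 genes and 16 lists that were picked with their values known, so that rate does not hold for them. The median signals and the Gapdh ratios of each arm were screened in the same way. The day 14 difference met it for Fabp1, at -5.18, and for the zinc finger gene Zfp109, at -1.28, both lower in MET_KO_canertinib on all 4 days. Among list medians, G2/M and mitosis met it on day 2 at -1.69, Kupffer and macrophage markers on day 7 at -1.93 and male-biased liver genes on day 14 at -1.77. The median signal of 265.1 of the MET_KO_canertinib array of day 14 lay apart from the other arrays of its arm.

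For Cyp17a1 and Mmd2 the genotype difference with canertinib minus that without was 4.99 and 6.56 on the log2 scale. Each had a limma adjusted p of 0.011, and array set went with drug state on days 0, 2 and 7. For 6 more of these 26 genes the genotype difference had the opposite direction on all 4 days without canertinib, but the test of the difference did not pass. Of the 845 genes higher on all 4 days with canertinib, 93 were lower and 43 higher on all 4 without it. Of the 923 lower ones, 84 were higher and 63 lower. Of all 13575 genes, 1061 were lower and 980 higher on all 4 days without canertinib. Hsd3b5 averaged -3.40 with canertinib and 5.27 without (limma adjusted p = 0.112). Gpcpd1 averaged 1.28 with canertinib and -0.90 without (limma adjusted p = 0.112). For Foxa3 the means were -1.01 with and 0.73 without (limma adjusted p = 0.175), and for Igfbp2 -1.67 with and 1.07 without (limma adjusted p = 0.286). Cyp2d9 averaged -1.18 with and 0.89 without (limma adjusted p = 0.425), and Inka1 0.73 with and -0.27 without (limma adjusted p = 0.9).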

How the results depend on the processing

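Cyp17a1 kept its direction under all 16 alternatives, with differences of 3.05 to 3.42 and limma adjusted p of 0.00175 to 0.146, and was called in 12. The filter, the probe set rule, the day block, the variance prior and the fits of all 16 arrays could not move its difference. They could change only its adjusted p, so the kept direction is no check there. The count of called genes was 0 without the intensity trend and 0 with the Gapdh ratio as a covariate, and 0 to 2 when 1 pair was left out. With no replicate block, that is without pairing by day, it was 1. Without day 14 the count of 2 became 0 with no replicate block and 0 to 0 when a further pair was left out (both chosen after seeing the data). The canertinib interaction gave 0 to 5 genes when 1 array was left out, with 5 without MET_KO_canertinib on day 14 and 4 without MET_KO_canertinib on day 7 or MET_FLOX on day 14.

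Genes past 1 on 4 days, 5 higher and 0 lower, became 15 and 3 without the filter on dim probe sets and 2 higher with all 8 arrays above their median. The lower count was 1 with log2(signal + 1) and 2 with quantile normalization. The 845 genes higher on 4 days became 551 with the stricter filter. With 1 pair left out, 1622 to 1851 genes were higher and 1632 to 1822 lower, and past 1, 24 to 33 higher and 7 to 18 lower. The counts of genes past 1 on a day depended on the filter. Without the filter, the higher and lower counts were 1169 and 1223 on day 0, 1365 and 1314 on day 2, 1507 and 1458 on day 7, and 1946 higher on day 14. With the stricter filter they were 96 and 130, 147 and 103, 201 and 242, and 392 and 520. That filter also drops genes that are bright in 1 arm and dim in the other, such as Aox3. Its lower counts are thus partly built in and do not show that the differences lay in dim probe sets. The day 14 median of CAR and PXR genes was -0.76 without the filter and -2.13 with the stricter one, that of metallothioneins and zinc transporters 0.32 with the stricter one (-0.44 on day 0), those of G2/M and neutrophil genes on day 2 -0.91 and 0.47 with it, that of acute phase genes on day 0 -0.17 after quantile normalization, and the mean of plasma proteins -0.09 after quantile normalization. No result reversed. The cause of these shifts was not tested. Whether dim signals, such as those of Hsd3b5, lay above background was not tested.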
